A study of Rattus norvegicus with 120 samples.

Results

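Among 120 rats whose eyes were profiled, those with the most evening-like and the most morning-like balance of clock transcripts were compared: 30 animals with the highest and 30 with the lowest value of a clock score, called the high-score and low-score groups, out of 120 animals in all. The score was the mean of Per2, Nr1d1, Nr1d2 and Dbp minus the mean of Bmal1, Npas2 and Nfil3. Each of these 7 genes was represented by the probe set with its highest mean, with the mean of each S code (a code in the sample titles) removed and the rest scaled to unit SD. The animals were thus chosen by the measured levels of the 7 genes, whose differences between the groups are given here as a description only. All animals of both groups were adult F2 males bred by intercrossing the inbred rat strains SR/JrHsd and SHRSP (written SHR/SP and SR/jrHSD in some labels), aged 12 weeks and with no treatment in the labels. RNA came from both eyes of each animal and was hybridised to 1 Affymetrix array. The time of killing and the lighting are not stated in the sources used here, so "evening-like" and "morning-like" describe the transcripts and not a recorded hour.

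The circadian clock is a feedback loop of transcription. Bmal1, paired with Clock or with its relative Npas2, binds E-box elements and drives the Per, Cry, Nr1d and Dbp genes. The Per and Cry proteins then block Bmal1, and the nuclear receptors Nr1d1 and Nr1d2 (Rev-erb alpha and beta) repress Bmal1 and Npas2 through ROR elements, which the Ror receptors activate. A further arm runs through D-box elements, where Dbp, Tef and Hlf activate and Nfil3 represses. In rodent peripheral tissues, retina included, Dbp, Per and Nr1d transcripts are high in the later part of the day and Bmal1, Npas2 and Nfil3 are high around the end of the night.

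Dbp, the D-box activator, spread furthest apart between the groups in SD units. With the S code means removed, as for all levels given here, its log2 level in the high-score group was 8.21 at the lowest, 8.45 at the median and 8.92 at the highest, against 7.51, 7.95 and 8.10 in the low-score group. The groups did not overlap, and their means differed 1.48-fold. Nr1d1 had means of 8.177 ± 0.21 and 7.66 ± 0.24 (SD, n = 30 each), 1.43-fold apart, and 29 of the 30 high-score animals lay above the low-score median. Per2, a repressor of Bmal1, had means of 7.54 ± 0.31 and 7.20 ± 0.19, 1.26-fold apart. Nr1d2 differed 1.22-fold, from 9.92 ± 0.19 to 9.64 ± 0.18, and its other probe sets differed by 0.27 and 0.35 on the log2 scale. A second probe set of Per2 differed by only 0.05, so that gene's difference rests on the probe set used in the score.

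Of the genes subtracted in the score, Npas2 had a mean of 6.79 ± 0.29 in the high-score and 7.30 ± 0.23 in the low-score group, 1.43 times higher in the latter. Nfil3, the D-box repressor, was likewise 1.43 times higher in the low-score group, at 6.81 ± 0.15 against 6.30 ± 0.21. Bmal1 had the smallest difference of these 3, at 8.20 ± 0.18 against 7.88 ± 0.19, 1.24-fold. All 30 high-score animals lay below the low-score median of Nfil3 and of Bmal1, and 28 did so for Npas2. The markers of the label, Dbp and Bmal1, thus ran opposite ways between the groups, which the score imposed.

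The 7 genes did not move as a single unit. Over all 120 animals the pairwise correlations ran from -0.709 for Dbp with Npas2 to 0.711 for Nr1d1 with Nr1d2. Bmal1 was nearly unrelated to Nr1d1 (r = -0.0865) and to Nr1d2 (r = -0.0649), while Dbp with Bmal1 gave -0.458. Within the 60 animals between the groups, whose score varied less by choice, Nr1d1 with Bmal1 gave 0.378, Nfil3 with Nr1d2 gave 0.396 and Dbp with Nfil3 gave -0.0172. These values share arrays and the removal of S code means, and are given as descriptions.

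Elements for which the clock is known stand in the RefSeq promoters (assembly GRCr8) of 3 of the 7 genes, and these are shown because they are the sites of the loop described above. The promoters covered 250 bases before and 50 after each gene's start and were searched on both strands for CACGTG (E-box), TTATGTAA (D-box) and TAGGTCA (the core of the ROR element). Over all 33469 promoters of the table, 6.42% held the E-box, 0.893% the D-box and 2.63% the ROR core. Capitals mark the matched letters in the 80-base stretches below, which lie at chr9:99497142-99497221 (minus strand) for Per2, chr10:84229603-84229682 (minus strand) for Nr1d1 and chr1:176766248-176766327 (plus strand) for Bmal1.
Per2 with a D-box 192 bases before the start: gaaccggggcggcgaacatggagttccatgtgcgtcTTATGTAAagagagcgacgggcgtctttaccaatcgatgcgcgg
Nr1d1 with an E-box 191 bases before the start: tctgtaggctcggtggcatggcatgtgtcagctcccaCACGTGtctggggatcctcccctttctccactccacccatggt
Bmal1 with a ROR core 16 bases before the start: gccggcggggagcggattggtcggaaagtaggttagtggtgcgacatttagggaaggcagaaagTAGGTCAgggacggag
A match describes the letters and does not show that a factor binds there.

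**Figure D1:**
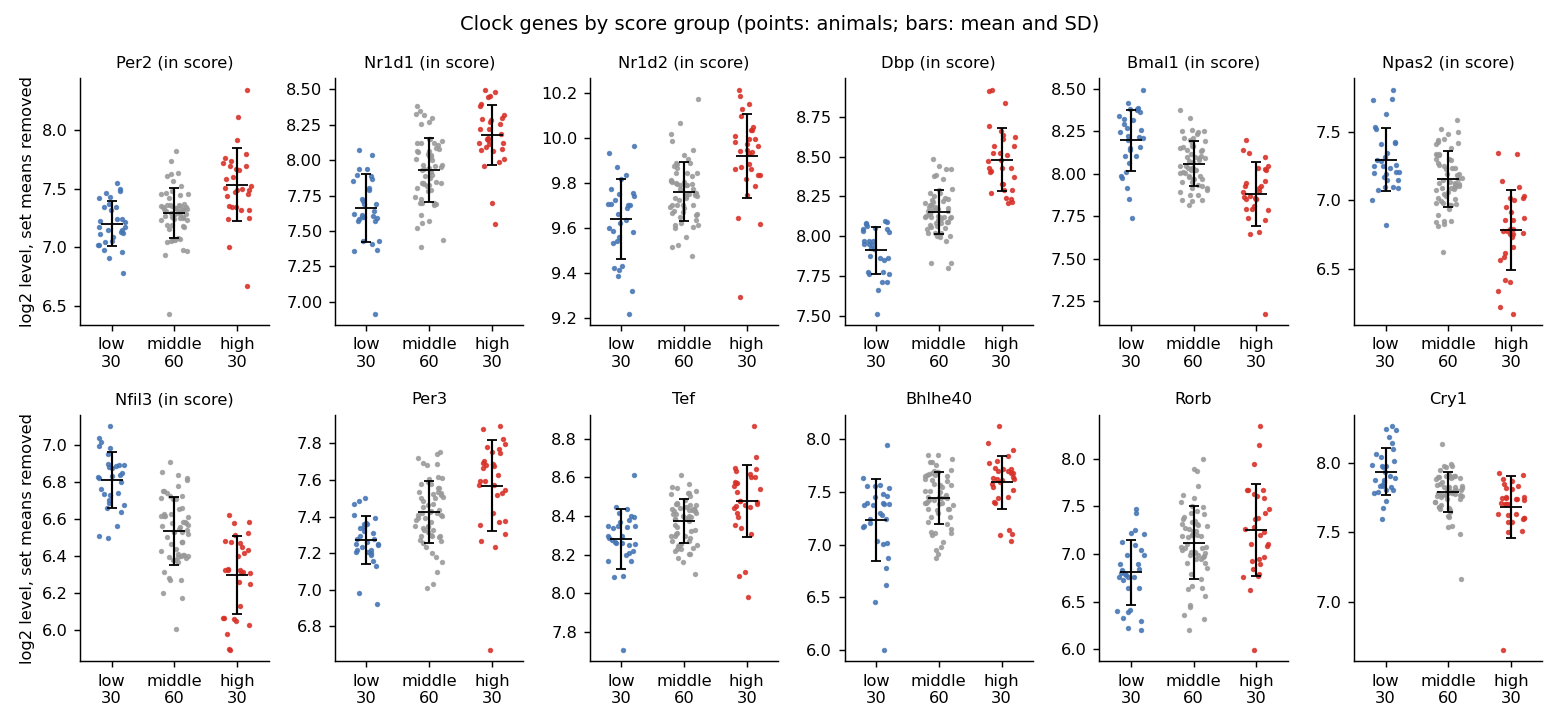
Log2 level (S code means removed) of the 7 genes of the score and of Per3, Tef, Bhlhe40, Rorb and Cry1 in the 30 low-score, 60 middle and 30 high-score animals; each point is 1 animal and the bars are mean and SD. Dbp does not overlap between the outer groups, whereas Per3, Tef, Bhlhe40 and Rorb lie higher and Cry1 lower in the high-score animals with overlap.

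The score ran from -2.66 to 4.16, in mean SD units. The high-score group had a mean of 1.87 ± 0.91 (SD) and the low-score group -1.60 ± 0.45, so the upper tail was the longer. The cuts fell in a continuous spread: the last high-score animal stood at 0.882 and the next one outside at 0.877, and the last low-score animal stood at -1.06 with the next outside at -1.02. Every one of the 10 S codes, which hold 11 to 13 animals, gave 1 to 5 animals to each group.

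The second code of the titles, L, was spread far less evenly. Of the 22 L codes, 6 held animals of both groups, 5 held high-score animals only, 8 low-score animals only and 3 neither. All 5 animals of L code 10 were high-score and all 6 of L code 17 were low-score, while L code 18 gave 7 high-score and 2 low-score animals of 11. The labels do not say what the L code is, so what animals of an L code share and a clock state cannot be told apart for most of the 60 animals. All 3 arrays marked as scanned again were in the high-score group, among them animal 63, the array least like the others (median correlation 0.937). The difference between 3' and 5' probe sets, a sign of RNA quality, was 1.13 ± 0.21 against 1.18 ± 0.23 log2 units for actin and 0.16 ± 0.10 against 0.21 ± 0.18 for GAPDH, high-score group first.

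**Figure D2:**
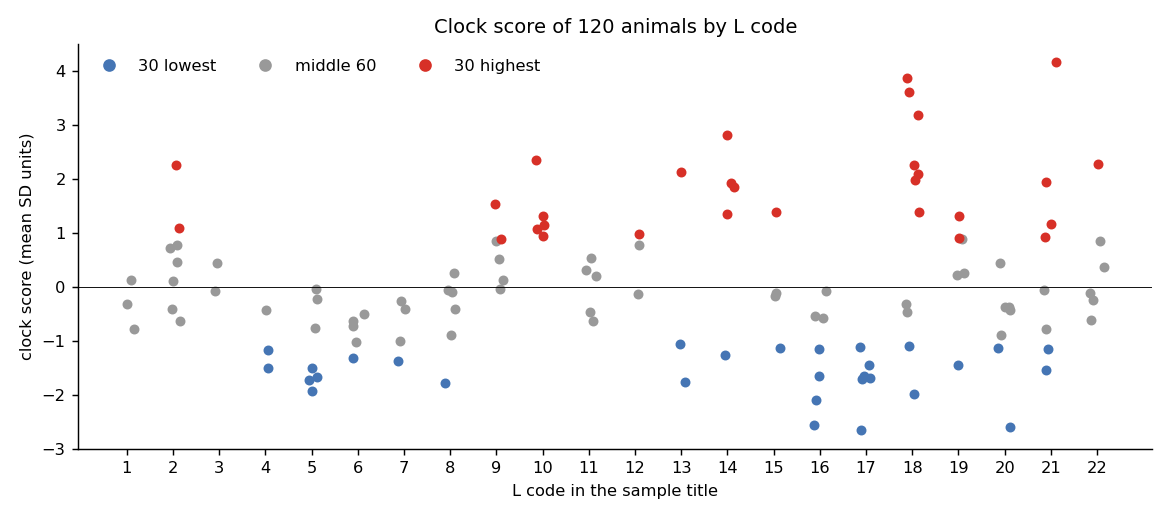
Clock score in mean SD units of all 120 animals by L code, with the 30 highest in red, the middle 60 in grey and the 30 lowest in blue. L codes 10 and 17 lie wholly in opposite groups, and L codes 13, 14, 15, 18, 19 and 21 hold animals of both.

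Outside the 7 genes the groups differed at a small number of probe sets, mostly lower in the high-score group. Genes that serve amino acid supply and the charging of transfer RNA were lower there, led by Chac1 and Asns at a log2 difference of -0.87 each, and of 19 measured clock genes left out of the score 4 were higher, with Per3 at 0.30, and 2 were lower, with Cry1 at -0.25. Of 23316 probe sets tested over the 60 animals, with the S code in the model, 147 (0.63%) passed an adjusted p of 0.05: 19 higher (0.0815%) and 128 lower (0.549%). Counted by genes, each by its probe set of highest mean, 15 of 12319 were higher and 88 lower (0.836% in all), the median difference of all genes was -0.014, and 7503 of the 12319 had a negative value. Only 56 of the 147 probe sets differed by 1.2-fold or more, and 2373 probe sets had an unadjusted p under 0.05.

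This count leaned on which animals were in it. With the L code also in the model, 3 probe sets passed, and over the 28 animals of L codes that hold both groups (19 high-score, 9 low-score) none passed, with 1436 at an unadjusted p under 0.05. All but 3 of the 147 probe sets kept their direction with the L code in the model, and all 147 did in the 28 animals. With 5 principal components in the model 4 probe sets passed. Leaving out 1 S code at a time gave 24 to 167 calls, and moved the count by over 1.5 times for S codes 4 (42), 6 (73), 7 (73), 8 (87) and 9 (24). Leaving out 1 L code gave 33 to 324, with the count moved that far by L codes 5 (47), 8 (83), 10 (324), 13 (96), 14 (54), 16 (59), 17 (33), 18 (61) and 21 (53). Without the 3 arrays scanned again 87 passed.

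**Figure D3:**
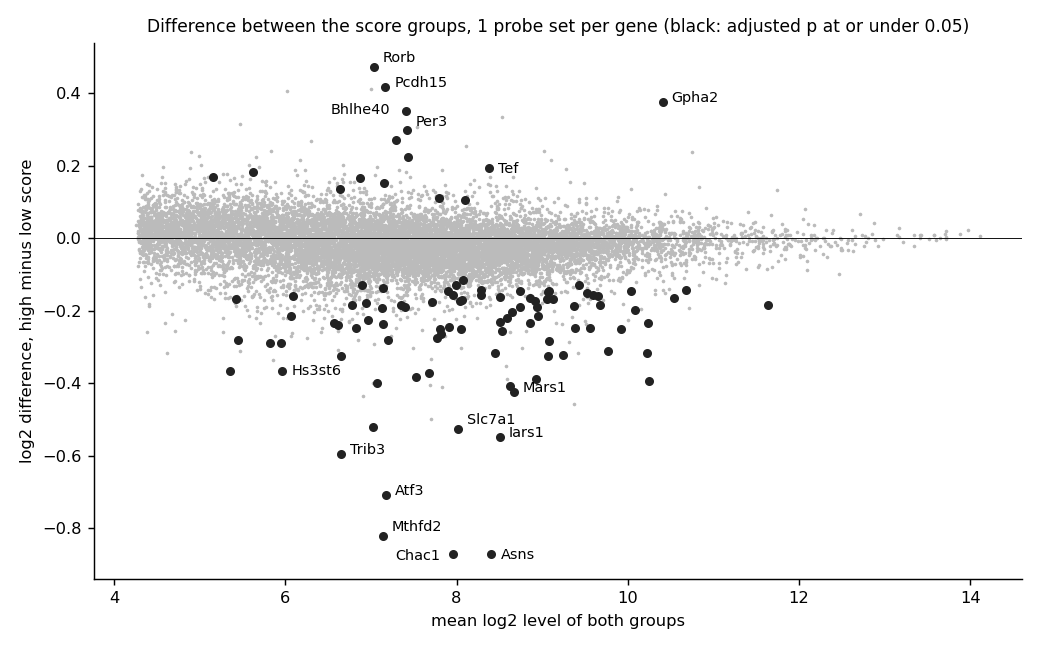
Log2 difference between the high-score and low-score groups against the mean log2 level of both, 1 probe set for each of 12319 genes (the 7 score genes left out), with the genes at an adjusted p of 0.05 or under in black. Asns, Chac1, Mthfd2, Atf3 and Trib3 have the largest differences and lie below 0.

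Clock genes that the score did not use differed in part in the direction of their partners. Among Per1, Cry1, Cry2, Bhlhe40, Bhlhe41, Per3, Tef and Hlf, the measured repressors and D-box activators, 3 were higher and 1 lower in the high-score group, with a median difference of 0.08 over the 8. Per3, the third Per gene, had levels of 6.67, 7.61 and 7.89 (lowest, median, highest) in high-score animals and 6.92, 7.27 and 7.503 in low-score animals. The high-score animal lowest in Per3 lay below every low-score animal, yet 27 of 30 stood above the low-score median, a log2 difference of 0.30 ± 0.05 (SE, adjusted p = 0.00166). A second Per3 probe set gave 0.13 (adjusted p = 0.123).

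Tef, the D-box activator closest in role to Dbp, ranged over 7.98, 8.48 and 8.87 against 7.71, 8.29 and 8.61. The group means were ordered the same way in 10 of 10 S codes, with a difference of 0.19 ± 0.05 (adjusted p = 0.0263). A second Tef probe set gave 0.23 (adjusted p = 0.264), and the L code in the model left 0.08 ± 0.09 (adjusted p = 0.598). Bhlhe40 (Dec1), which represses at E-boxes, ranged over 7.03, 7.63 and 8.125 against 5.999, 7.34 and 7.95, a difference of 0.35 ± 0.09 (adjusted p = 0.0368). The groups overlapped from 7.03 to 7.95, with low-score animals alone below that.

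Cry1, the repressor whose transcript is known to peak later than the Per genes, was lower in the high-score group. Its levels were 6.65, 7.72 and 7.92 against 7.59, 7.90 and 8.26, and the order of the means held in 10 of 10 S codes. The difference was -0.25 ± 0.06 (adjusted p = 0.0161), and -0.34 ± 0.09 with the L code in the model (adjusted p = 0.241). Per1 (-0.06 ± 0.05), Cry2 (0.00 ± 0.05), Bhlhe41 (0.05 ± 0.06) and Hlf (0.10 ± 0.04, adjusted p = 0.268) did not pass.

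The promoters of Tef and Bhlhe40 are shown because, of the 14 genes called higher that matched the promoter table, they were the 2 with an E-box (14.3%, against 9.68% of all genes tested that matched). The stretches lie at chr7:115206592-115206671 (plus strand) and chr4:143174200-143174279 (plus strand) of GRCr8, with the E-box in capitals.
Tef, 198 bases before the start: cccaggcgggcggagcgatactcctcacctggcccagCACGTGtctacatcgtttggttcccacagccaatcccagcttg
Bhlhe40, 220 bases before the start: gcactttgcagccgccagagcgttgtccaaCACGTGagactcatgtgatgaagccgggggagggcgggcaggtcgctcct
Genes called lower held the E-box in 12 of 72 matched promoters (16.7%), a share close to that of the genes called higher.

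On the activator side, Rorb, a Ror receptor of retina and brain, was higher in the high-score group. It ranged over 5.99, 7.25 and 8.34 against 6.20, 6.80 and 7.47, a difference of 0.47 ± 0.11 (adjusted p = 0.0249), the largest positive one of all genes called. Its second probe set gave 0.13 (adjusted p = 0.536), so the larger value belongs to 1 probe set. With the L code in the model as a covariate, Rorb was left at 0.09 ± 0.16. With the L code as a random block instead it stood at 0.44, and over the 28 animals of L codes that hold both groups at 0.49. It did not pass in any of these fits. Clock (-0.08 ± 0.04), Bmal2 (-0.07 ± 0.04) and Rora (-0.12 ± 0.21) did not pass. Among the kinases, ligases and cofactors Csnk1d, Csnk1e, Btrc, Fbxw11, Timeless, Nono and Wdr5, only Btrc passed, a subunit of the ligase that marks Per proteins for breakdown, at -0.24 ± 0.05 (adjusted p = 0.0161). Its second probe set gave -0.11 (adjusted p = 0.784), and the L code in the model left -0.11.

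No member of the lists of known clock outputs and inputs passed the same test, beside 0.836% of all genes. In lists this short a count of 0 is near that share. None of 8 clock-controlled output genes passed, and their median was 0.01, with Por, the electron donor of cytochrome P450 enzymes, at 0.15 ± 0.04 (adjusted p = 0.0961) and Usp2 at -0.16 ± 0.16. Among 9 genes of melatonin and dopamine, none passed and the median was -0.01, with the melatonin enzyme Aanat at -0.02 ± 0.05 and the dopamine receptor Drd4 at 0.17 ± 0.05 (adjusted p = 0.180). Both Aanat and Drd4 are known for strong night-time transcripts in the rodent eye or pineal. None of 6 genes of light input to the clock passed (median 0.03), with melanopsin, Opn4, at 0.11 ± 0.12.

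Genes of the amino acid response, by which cells short of amino acids raise their synthesis, uptake and charging through the factor Atf4, included the largest differences of single genes. Of 13 measured members, 7 passed and all 7 were lower in the high-score group, 12 had a negative value and the median was -0.18, beside -0.014 for all genes, of which 0.836% passed. Asns, asparagine synthetase, ranged over 6.82, 8.003 and 8.90 in high-score animals and 7.64, 8.94 and 9.80 in low-score animals. All 30 high-score animals lay below the low-score median, and the difference of -0.87 ± 0.14 (adjusted p = 0.000729) made the level 1.83 times higher in the low-score group.

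Chac1, which breaks down glutathione, ranged over 6.09, 7.63 and 8.68 against 7.12, 8.57 and 9.53, also -0.87 ± 0.16 (adjusted p = 0.00286). Mthfd2, a mitochondrial enzyme of folate-bound carbon, stood at -0.82 ± 0.17 (adjusted p = 0.0108). Trib3, a pseudokinase that restrains the response, stood at -0.59 ± 0.14, and a second probe set gave -0.74 (adjusted p = 0.00694). For each of these 3 genes the ranges of the groups overlapped broadly.

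Sesn2, a sensor of leucine, differed by -0.52 ± 0.13 (adjusted p = 0.0400, and 0.0622 without animal 63). Ddit3, the stress factor Chop, differed by -0.32 ± 0.07 and Atf4 itself by -0.18 ± 0.04 (adjusted p = 0.0194). Atf3, a partner factor counted here among immediate early genes, was the only one of those 15 to pass, at -0.71 ± 0.16 (adjusted p = 0.0237), while Fos was at 0.11 ± 0.19 and Egr1 at 0.33 ± 0.15. The amino acid transporters Slc7a1, for arginine and lysine, and Slc1a4, for alanine and serine, were lower by the same test, at -0.53 ± 0.11 and -0.40 ± 0.10 (adjusted p = 0.0414, and 0.0586 without animal 63). The members that did not pass were Atf5, Slc7a11, Psat1, Ddit4, Slc3a2 (-0.12 ± 0.03, adjusted p = 0.0945) and Phgdh (0.09 ± 0.04), the serine pathway enzymes Phgdh and Psat1 among them.

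The count in this list varied with the S code left out, from 2 without S code 4 or 9 to 7, and was 2 without L code 17. It was 1 with Bmal1 left out of the score, 1 with no S code in the model, 3 in the undated S codes alone and 0 in the dated ones alone. With the L code or 5 principal components in the model, none of the 13 passed. With the L code, Asns was at -0.45 ± 0.22 (adjusted p = 0.295) and Chac1 at -0.27 ± 0.23, while Trib3 and Sesn2 turned to 0.08 and 0.09. With the principal components all of these 4 stayed negative, Asns at -0.42, Chac1 at -0.26, Trib3 at -0.10 and Sesn2 at -0.15.

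Aminoacyl-tRNA synthetases, which join each amino acid to its transfer RNA, were lower in the high-score group for many cytosolic enzymes. This family was taken by symbol after values had been seen. Of 19 cytosolic enzymes, 10 passed, all lower in the high-score group, all 19 values were negative and the median was -0.23, beside 0.836% called, 7503 of 12319 negative and a median of -0.014 over all genes. Of 13 mitochondrial enzymes, none passed and the median was -0.06, with values from -0.17 for Yars2 to 0.05 for Wars2. The difference between the families was not tested.

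Iars1, the isoleucine enzyme, ranged over 6.85, 8.23 and 8.89 against 8.14, 8.82 and 9.49, a difference of -0.55 ± 0.10 (adjusted p = 0.00202), although a second probe set gave -0.07 (adjusted p = 0.652). Mars1, for methionine, ranged over 7.72, 8.49 and 8.94 against 8.28, 8.88 and 9.51, a difference of -0.42 ± 0.07 (adjusted p = 0.00126). Its second probe set gave -0.36 (adjusted p = 0.0949). For both genes, by the probe set of highest mean, 29 of 30 high-score animals lay below the low-score median and the means were ordered alike in 10 of 10 S codes.

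Tars1 (-0.41 ± 0.07), Yars1 (-0.39 ± 0.07), Lars1 (-0.32 ± 0.07), Aars1 (-0.32 ± 0.05), Nars1 (-0.31 ± 0.05), Cars1 (-0.25 ± 0.06), Gars1 (-0.25 ± 0.05) and Eprs1 (-0.23 ± 0.05) made up the rest of the 10. Second probe sets of Cars1 (-0.45, adjusted p = 0.00122) and Lars1 (-0.23, adjusted p = 0.0161) passed. Those of Gars1 (-0.20, adjusted p = 0.226) and Eprs1 (-0.15, adjusted p = 0.643) did not. Kars1 (-0.01 ± 0.03), Vars1 (-0.01 ± 0.03), Qars1 (-0.03 ± 0.03), Hars1 (-0.04 ± 0.05) and Wars1 (-0.04 ± 0.03) were near 0. Sars1 came closest to passing of the other 9, at -0.13 ± 0.03 (adjusted p = 0.0516). Of the 19, 6 to 11 were called lower with 1 S code left out, 6 to 11 with 1 L code left out, 2 in the undated S codes alone, none in the dated ones alone and 1 with no S code in the model. With the L code or 5 principal components in the model none passed, and with the L code Cars1 turned to 0.02.

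Promoters of these genes are shown because an element of known function stood in some of them. The element was not in the planned display and was searched for after values had been seen. Its shares are therefore descriptions, and control by Atf4 was not tested. The core of the amino acid response element, TGATGNAA, bound by Atf4 with its partners, stood on either strand in 3.98% of all promoters and in 2.21% of the genes tested that matched the table. It stood in 11 of 72 matched genes called lower (15.3%) and in 0 of 14 called higher. Of the cytosolic synthetases called lower, 7 of 9 matched held it (Aars1, Cars1, Iars1, Mars1, Nars1, Tars1 and Yars1), against 0 of 8 that did not pass and 0 of 13 mitochondrial ones. Of the 7 amino acid response genes called lower, Chac1 and Trib3 held it in this window, and none of the 6 list members that did not pass did. Capitals mark the element, found on the reverse strand of each of these genes. The stretches are chr3:126795928-126796007 (plus strand) for Chac1, chr3:161275534-161275613 (minus strand) for Trib3, chr17:15193653-15193732 (minus strand) for Iars1, chr7:65023754-65023833 (minus strand) for Mars1 and chr2:62114803-62114882 (minus strand) for Tars1, all in GRCr8.
Chac1, 167 bases before the start: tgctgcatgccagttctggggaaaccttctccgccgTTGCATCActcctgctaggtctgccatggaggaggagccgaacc
Trib3, 21 bases before the start: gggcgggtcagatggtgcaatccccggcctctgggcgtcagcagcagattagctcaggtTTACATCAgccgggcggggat
Iars1, 24 bases before the start: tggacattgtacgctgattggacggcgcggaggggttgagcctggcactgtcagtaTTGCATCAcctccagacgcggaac
Mars1, 17 bases before the start: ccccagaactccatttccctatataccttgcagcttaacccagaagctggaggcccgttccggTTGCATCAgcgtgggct
Tars1, 27 bases before the start: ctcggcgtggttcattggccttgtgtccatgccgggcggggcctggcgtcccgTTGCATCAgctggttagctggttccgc
In Trib3, Iars1, Mars1 and Tars1 the element lay within 30 bases of the start, as it did in Slc7a1 (30 bases).

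**Figure D4:**
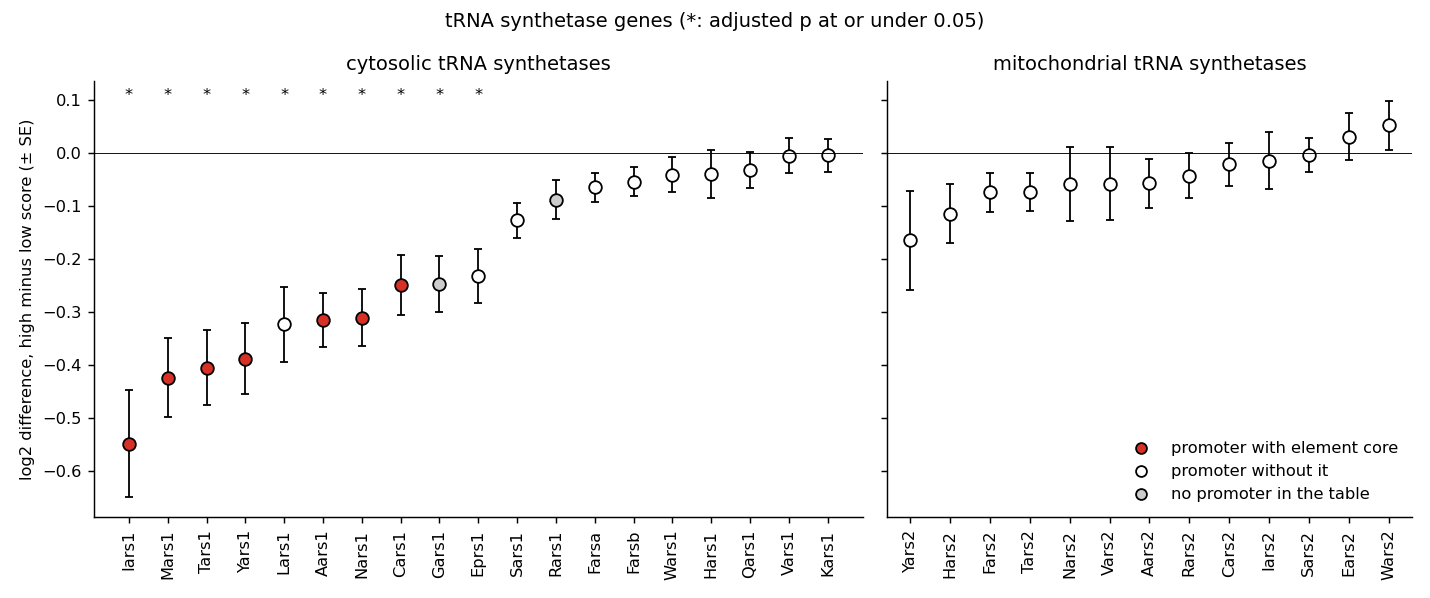
Log2 difference between the high-score and low-score groups (points) with SE (bars) for 19 cytosolic and 13 mitochondrial tRNA synthetase genes; stars mark an adjusted p of 0.05 or under, and red points mark promoters with the core of the amino acid response element. The 7 red points are all cytosolic and lie between -0.55 and -0.25.

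Other genes called higher have roles outside the clock. Gpha2, a hormone subunit found in the cornea, ranged over 10.1, 10.61 and 11.08 against 9.63, 10.2 and 10.72, a difference of 0.37 ± 0.06 (adjusted p = 0.00122), with the means ordered alike in 10 of 10 S codes. Ephx1, an epoxide hydrolase, differed by 0.22 ± 0.04 (adjusted p = 0.00195), with 29 of 30 high-score animals above the low-score median. Pcdh15, a cadherin of photoreceptors and hair cells, stood at 0.42 ± 0.10 and Pde8a, which breaks down cyclic AMP, at 0.27 ± 0.07. Bcl11a, Galnt6, Atp2a3 and Uap1l1 differed by 0.15 to 0.18. A second probe set gave 0.18 for Uap1l1 (adjusted p = 0.0441), 0.18 for Bcl11a (adjusted p = 0.417) and 0.04 for Atp2a3 (adjusted p = 0.832). With the L code or 5 principal components in the model, none of the genes of this paragraph passed. With the L code Gpha2 stood at 0.32, Pcdh15 at 0.24 and Ephx1 at 0.10. Without animal 63, Pde8a (adjusted p = 0.0513) and Bcl11a (adjusted p = 0.0656) no longer passed.

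The gene with the smallest p of all was lower in the high-score group. Hs3st6, a sulfotransferase of heparan sulfate chains and a gene singled out after its values were seen, ranged over 5.40, 5.78 and 6.20 against 5.82, 6.14 and 6.51. The difference was -0.37 ± 0.05 (adjusted p = 1.08e-05), and 29 of 30 high-score animals lay below the low-score median. It was the only gene called that also passed with the L code in the model (-0.48 ± 0.08, adjusted p = 0.0136) and with 5 principal components (-0.39, adjusted p = 0.00036). Of the other genes called, Per3, at 0.30 (adjusted p = 0.0208), and Pdlim7, at -0.17 (adjusted p = 0.0208), passed with the principal components. Lpcat1, a phospholipid enzyme abundant in rods, was lower, at -0.39 ± 0.07 (adjusted p = 0.00134), and at -0.20 with the L code in the model.

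Several lists leaned one way with no member passing, beside 7503 of 12319 negative values over all genes, of which 0.836% passed. All 9 interferon-response genes measured were lower in the high-score group by value (median -0.26), from -0.17 for Irf7 to -0.44 ± 0.16 for Ifit3 (adjusted p = 0.247). All 10 glucocorticoid-response genes had negative values (median -0.09), with Fkbp5 at -0.09 ± 0.12 and Pdk4 at -0.50 ± 0.18 (adjusted p = 0.255). Of 11 cell cycle genes 10 were negative (median -0.11). Of 10 heat shock and cold-inducible genes 7 were negative (median -0.04), a share near that of all genes, with the cold-inducible Cirbp at 0.01 ± 0.06. Respiratory chain (14 genes), ribosomal protein (12), cholesterol synthesis (12), visual cycle (11) and disc phagocytosis (8) genes had medians within 0.01 of 0 and no member called.

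Markers of the eye's cell types and of tissue dissected with it stayed close between the groups. Over 18 such lists, 156 genes were tested and none passed, beside 0.836% of all genes, so the count of 0 is near that share. List medians ran from -0.09 for red blood cells to 0.06 for cone phototransduction. Outside the lists, single genes of photoreceptors did pass, among them Lpcat1 at -0.39 and Pcdh15 at 0.42. The median over animals of a list's mean level shifted by at most 0.08 log2 units. In whole eyes, fewer cells of a type and less RNA per cell cannot be told apart.

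The 60 animals in neither group gave values the group comparison did not use. Over their narrower spread of scores (SD 0.51), no probe set passed a test of slope on score, and 1222 had an unadjusted p under 0.05. Of the 147 probe sets called, 95 (64.6%) had a slope in the same direction as the group difference, against 48.0% of all tested. In that direction, 9 (6.12%) also had an unadjusted p under 0.05, against 2.88% of all. Among the 128 called lower, 84 (65.6%) kept the direction, and these held all 9. Among the 19 called higher, 11 (57.9%) kept it, 0 of them with an unadjusted p under 0.05. All 10 cytosolic synthetases called lower and all 7 amino acid response genes called lower had negative slopes, beside a median slope of 0.005 over all genes. None of the 7 had an unadjusted p under 0.05, and Ddit3 (-0.0005) and Atf4 (-0.03) were near 0. Members of a family come from the same arrays, so they are not separate replicates. Mars1 had -0.19 ± 0.09 per score unit (unadjusted p = 0.0465), beside -0.12 per unit between the groups, and Iars1, Aars1 and Gars1 likewise had an unadjusted p under 0.05. Asns had -0.36 ± 0.19 (unadjusted p = 0.0592).

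For the clock genes outside the score the middle animals gave less. Of 6 called, 4 had slopes in the same direction and none had an unadjusted p under 0.05: Per3 had 0.05 ± 0.05, Tef -0.05 ± 0.03, Bhlhe40 0.00 ± 0.07 and Cry1 0.00 ± 0.04 per score unit. With the L code in the model of the middle animals, only 28 of the 147 probe sets kept the direction, so most of them ran the other way. This share was below the 36.1% of all tested, whereas without the L code the share of the 147 was above that of all tested. The 147 include the synthetases and amino acid response genes called lower.

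**Figure D5:**
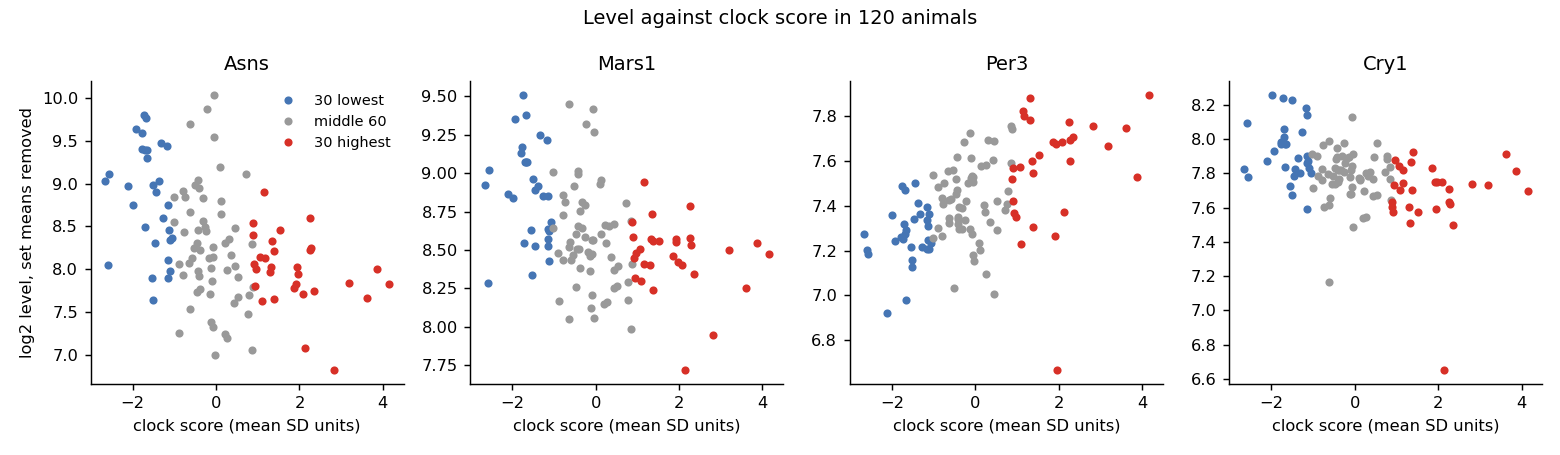
Log2 level (S code means removed) of Asns, Mars1, Per3 and Cry1 against the clock score in mean SD units, 1 point for each of 120 animals, coloured by group. High-score animals all lie at or below 8.90 in Asns, and middle animals spread from 6.998 to 10.04.

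The group difference was also compared between the 5 S codes with a date in the titles (13 high-score, 11 low-score animals) and the 5 without (17 and 19). No probe set passed the test of the interaction in limma, and 5003 had an unadjusted p under 0.05, which dropped to 1445 with both 3' to 5' differences (actin, GAPDH) in the model. Asns differed by -1.28 in the dated and -0.61 in the undated S codes (interaction adjusted p = 0.173), and Mars1 by -0.67 and -0.27 (adjusted p = 0.140). The contrast was wider for Slc7a1, at -1.04 and -0.20 (unadjusted p = 7.69e-05, adjusted p = 0.108). Lars1 stood at -0.64 and -0.13, Gars1 at -0.48 and -0.10 and Eprs1 at -0.46 and -0.09, each with an interaction adjusted p of 0.108. Within the dated S codes alone 0 probe sets passed the group comparison (3319 at an unadjusted p under 0.05), and within the undated ones 58 did. A slope on the score over all 120 animals gave 3071 probe sets with a different slope between dated and undated S codes. That count was 17 without animal 63, and 0 with animal 63 kept and both 3' to 5' differences in the model. At an unadjusted p under 0.05 stood 8075 probe sets with all animals, 4644 without animal 63 and 4156 with those differences. What the count rests on was not tested.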

How the data were processed

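The authors deposited log2 expression values made by RMA (robust multi-array averaging), per the submitters' processing notes, for 120 arrays; its version and the annotation behind it are not given in the sources used here. Per the labels' protocols, total RNA was labelled by the Affymetrix one-cycle method. The table held 31099 probe sets (57 controls); 20826 had 1 symbol in the platform annotation, 436 several and 9780 none. Array medians lay between 5.78 and 5.96, and the number of arrays limits the precision. RMA brings array distributions closer, which can mask a shift common to most genes.

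The probe sets tested had means no lower than 4.283, the 25th percentile of the table; they were fitted with limma 3.58.1 (R 4.3.3), leaving out controls and all 10 probe sets of the score genes: level on group plus S code over the 60 animals (49 residual degrees of freedom), with moderated statistics and Benjamini-Hochberg adjustment at 0.05. Errors of differences are SE. Slopes over the middle 60 animals and the interaction were fitted likewise. Named genes were the score genes, the clock lists and the 12 largest differences each way among genes called. Up to 3 called members of each list were also named. Synthetases, Hs3st6 and the search for the amino acid response element were added after values were seen. The score, the 37 lists (391 genes) and the comparisons were chosen with earlier results of these data known. Other probe sets come from the same arrays as the score. On simulated data for the group comparison (23316 probe sets), 28% of 1.1-fold, 82% of 1.2-fold, 94% of 1.3-fold and 96% of 1.5-fold changes were recovered. The simulated noise was independent between probe sets and arrays and held no L code effects, so recovery in the real data may be lower. Alternatives changed the filter, covariates, group size, score genes and animals. Promoters came from a RefSeq table (GRCr8).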

Additional observations from a re-analysis of the deposited data

How the results depend on the processing

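Of 147 probe sets called, the count was 11 with no S code in the model, 3 with the L code as covariate, 75 with it as a random block, 4 with 5 principal components and 237 with RNA quality (3' against 5' probe sets of actin and GAPDH). It was 87 without the 3 rescanned arrays, 559 with array weights, 28 at an adjusted p of 0.01 and 56 at 1.2-fold or more. Groups of 20 gave 234 and of 40 gave 97, all animals in 3 groups 328, and a continuous score 423. Leaving a gene out of the score gave 330 for Nr1d2, 67 for Bmal1 and 449 for Npas2. Dated S codes alone gave 0, undated ones 58, and L codes with both groups 0 (chosen after seeing the data, as were the runs without 1 L code). Leaving out 1 code at a time gave 24 to 324. The share of calls that were higher went from 12.9% to 39.7% in the undated S codes, 22.8% with RNA quality and 24.5% with array weights. The direction of all 147 was kept in these settings except by the L code (144 kept) and dated S codes (146 kept). These settings reuse animals in which the 147 were called, so kept direction is no separate check. With the L code, Trib3 (0.0837), Sesn2 (0.0919) and Cars1 (0.0168) reversed and did not pass, 30 other named genes of the 34 called no longer passed, and 1 did. The slope in middle animals gave 1 call with the L code against 0. The interaction gave 3071 with a continuous score against 0. With that score it gave 17 without animal 63 and 0 with RNA quality in the model, both also chosen after seeing the data. The causes were not tested. No paired analysis was possible because the labels put all animals in 1 group. A difference of 1.1-fold was mostly missed at this number of arrays in the simulation, which held no L code effects.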

Other observations

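Some single genes outside the naming rule are given here by value; they were picked out after their values were seen, so they stand for no group. Mpp4, a scaffold protein of photoreceptors, differed by -0.25 between the high-score and low-score groups (adjusted p = 0.00126 in limma), Bbs4, a subunit of the ciliary BBSome, by -0.32 (adjusted p = 0.0166), and Pcare, which shapes outer segment discs, by -0.25 (adjusted p = 0.0267). In the middle animals the slopes per score unit were -0.01 ± 0.04 (SE) for Mpp4, 0.10 ± 0.08 for Bbs4 and -0.02 ± 0.06 for Pcare, none with an unadjusted p under 0.05. The lists of rod phototransduction (16 genes) and outer segment structure (9 genes) had no member called, beside 0.836% of all genes. No list of cilium genes was tested.

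Aldh18a1, which makes proline precursors, differed by -0.38 (adjusted p = 0.00286), Gdf15, a secreted stress signal, by -0.37 (adjusted p = 0.0161), and Cebpg, a binding partner of Atf4, by -0.23 (adjusted p = 0.0110). The slope of Aldh18a1 in the middle animals was -0.18 ± 0.09 (unadjusted p = 0.0386), that of Gdf15 was 0.03 ± 0.08 and that of Cebpg was -0.03 ± 0.05.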
